A study of Mus musculus with 12 samples.

Results

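The 10 genes described here mark the position of hepatocytes along the axis of the liver lobule, and they were chosen by symbol from the 26031 genes with a count in any library. Of these, 7 are pericentral markers, expressed next to the central vein (Glul, Cyp2e1, Cyp1a2, Oat, Axin2, Lgr5 and Avpr1a). The other 3 are periportal markers, expressed next to the portal tract (Hal, Sds and Gls2). Liver RNA from C57BL/6N mice was sequenced in 4 groups of 3 libraries. The groups were regular chow, uninjected high-fat diet, high-fat diet with vehicle (30% DMSO in corn oil) and high-fat diet with 50 mg/kg of PCN. Diets ran from 6 weeks of age for 15 weeks, and vehicle or PCN was injected intraperitoneally once daily on 4 days. PCN (pregnenolone 16α-carbonitrile) is an agonist of the rodent pregnane X receptor, a nuclear receptor that drives drug metabolism genes. The 3 high-fat groups thus share the diet, and the vehicle and PCN groups also share the injections. The labels do not say whether each library came from its own mouse, so the p-values below measure the spread between these libraries.

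Blood enters the lobule at the portal tract and leaves at the central vein, and hepatocytes divide their work along that path. Endothelial cells of the central vein release Wnt ligands and R-spondin, which activate β-catenin in the nearest hepatocytes and switch on the pericentral genes. Periportal hepatocytes carry out urea synthesis, gluconeogenesis and amino acid breakdown, and glutaminase there releases ammonia that pericentral glutamine synthetase captures again. Whole-tissue RNA does not keep these positions, and fewer cells of a zone and less RNA per cell cannot be told apart in it.

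The proximal promoters are printed for 4 members, the pair of pericentral genes that moved together below (Cyp1a2 and Avpr1a), the pericentral gene that moved the other way (Glul) and a periportal gene (Hal). Each is the 250 bases before the RefSeq transcription start on GRCm38.p6, written 5′ to 3′ on the gene's strand. The windows are chr9:57683656-57683905 (minus strand), chr10:122448249-122448498 (plus), chr1:153899679-153899928 (plus) and chr10:93488518-93488767 (plus). Capitals mark matches to the core of the site bound by the β-catenin partners TCF and LEF (CTTTGA, or TCAAAG on the other strand) and to the core of the aryl hydrocarbon receptor site (GCGTG, or CACGC).
Cyp1a2: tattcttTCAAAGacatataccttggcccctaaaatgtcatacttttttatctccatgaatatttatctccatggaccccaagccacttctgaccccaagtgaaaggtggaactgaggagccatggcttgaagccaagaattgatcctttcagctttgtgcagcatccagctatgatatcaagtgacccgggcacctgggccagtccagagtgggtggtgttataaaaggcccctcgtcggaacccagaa
Avpr1a: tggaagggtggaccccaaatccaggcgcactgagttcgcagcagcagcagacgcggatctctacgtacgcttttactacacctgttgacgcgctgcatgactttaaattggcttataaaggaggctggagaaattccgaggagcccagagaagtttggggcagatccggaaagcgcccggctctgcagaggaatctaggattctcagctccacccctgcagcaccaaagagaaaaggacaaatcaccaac
Glul: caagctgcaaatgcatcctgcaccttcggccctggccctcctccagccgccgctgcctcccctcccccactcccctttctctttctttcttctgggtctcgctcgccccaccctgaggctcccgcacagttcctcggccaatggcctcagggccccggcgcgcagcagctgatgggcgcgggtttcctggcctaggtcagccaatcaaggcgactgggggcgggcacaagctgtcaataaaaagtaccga
Hal: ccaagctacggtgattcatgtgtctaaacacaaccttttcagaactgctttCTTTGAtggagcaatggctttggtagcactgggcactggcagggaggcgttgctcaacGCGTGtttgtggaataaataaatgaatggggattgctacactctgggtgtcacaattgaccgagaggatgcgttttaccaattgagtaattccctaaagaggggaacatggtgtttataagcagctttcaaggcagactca
The RefSeq table held a start for 7 of the 10 members, all but Lgr5, Sds and Gls2. The TCF/LEF letters were found once each in 3 of the 7 windows, 243 bases before the start of Cyp1a2, 135 before that of Cyp2e1 and 199 before that of Hal. They occur in 13.8% of the windows of this length at 32851 starts. The aryl hydrocarbon receptor core, found in 28.2% of all windows, was present in the Hal window, 141 bases before the start. The letters TATAAA (or TTTATA) were found in the windows of Cyp1a2, Avpr1a, Cyp2e1 and Hal and in 12.4% of all windows. A match is a run of letters and not a measured binding site.

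Counts were given for every gene only in the uninjected and vehicle high-fat libraries. Chow and PCN counts were given for genes that passed the authors' threshold in at least 1 table, which leaves 6 members with chow counts, 6 with PCN counts and 4 with both (Cyp1a2, Avpr1a, Hal and Gls2). Summed counts were 7466378 to 38161486 per uninjected library and 19773547 to 22039805 per vehicle library, and totals estimated from size factors were 15100000 to 22300000 for chow and 11500000 to 35400000 for PCN. Values below are read counts divided by the library's size factor (normalized counts), given in the order of the replicates. Within the uninjected group the shallowest library, replicate 38, was the lowest in 9 of the 10 members. Within the vehicle group replicate 55 was the lowest in 7 of 10, and within the PCN group replicate 27 was the lowest in 4 of 6. Summed hepatocyte markers (7 of 8 measured, none at 0) overlapped between uninjected (1731780 to 2331270) and vehicle libraries (1673330 to 2331160).

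Levels of different members were compared per kilobase of exon. In the uninjected high-fat libraries Cyp2e1 had 73114 ± 21751 normalized counts per kilobase (SD, n = 3), above every other member. It was followed by Oat (9042 ± 4852) and Glul (7049 ± 786), whose ranges overlapped, and then by Sds (2182 ± 632). Gls2, Hal and Cyp1a2 had means between 723 and 1086 on the same scale and overlapped with each other, but not with Sds above or Avpr1a below. The receptor and Wnt feedback genes were lowest, with Avpr1a at 17.7 ± 0.889, Axin2 at 15.3 ± 1.64 and Lgr5 at 6.80 ± 0.853, and these 3 did not overlap. The rank of Cyp1a2 depended on which members were counted in a group. It ranked 3 of 6 counted members in chow (2950 ± 810), 7 of 10 in uninjected high-fat liver (723 ± 399) and 4 of 10 with vehicle (2224 ± 906). With PCN it was the highest of 6 (4028 ± 1279) and did not overlap with Gls2, the next. However, Oat and Glul, which ranked above it in chow, have no PCN counts. Among the 4 members counted in every group, Cyp1a2 was also the highest in chow. There too it did not overlap with Gls2 (2105 to 3720 against 1445 to 1849).

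**Figure D1:**
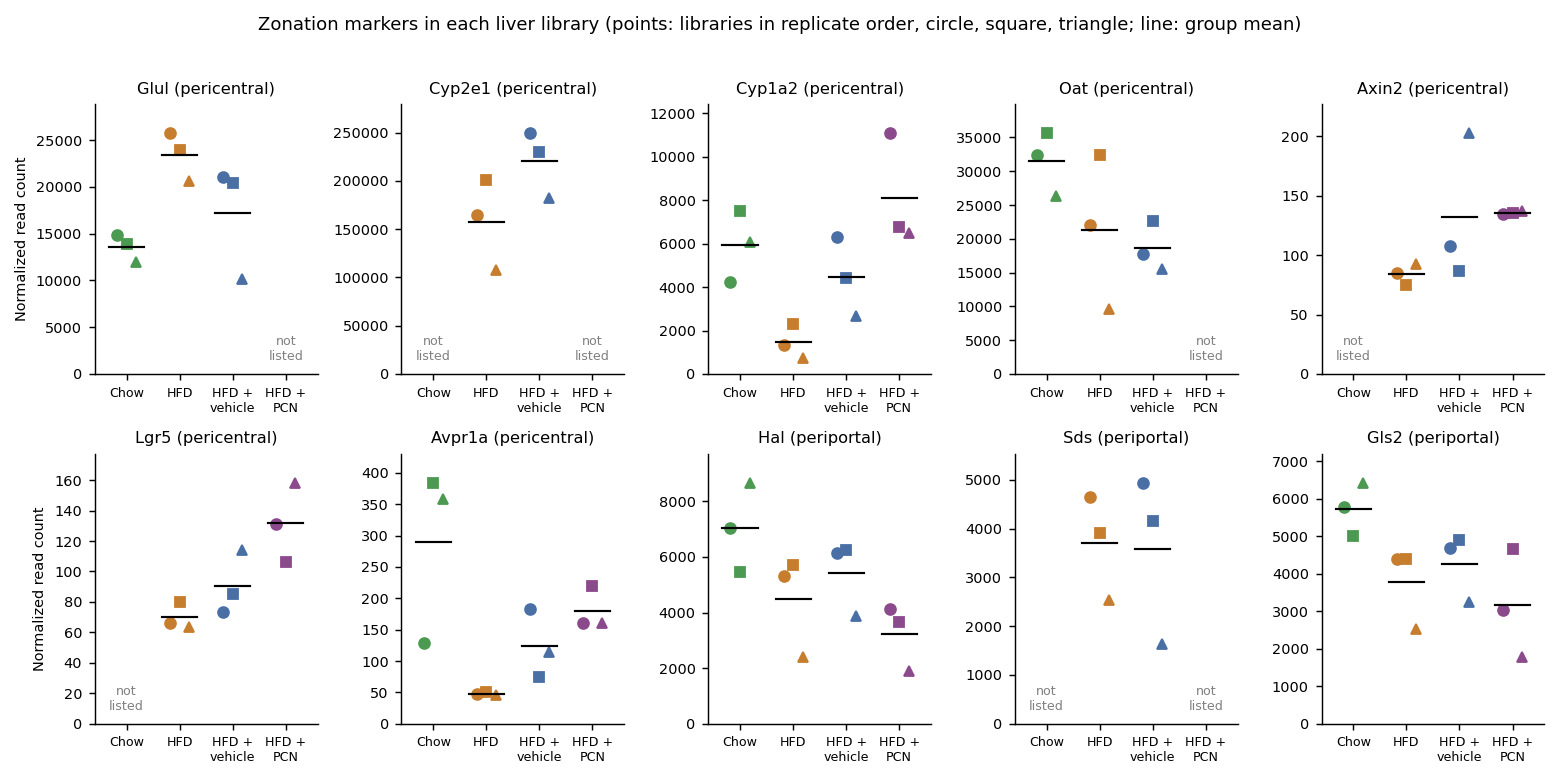
Normalized read count (linear axis from 0) of the 10 zonation markers in each library, grouped by diet and treatment, with circle, square and triangle for the 3 replicates in order and a line at the group mean. Cyp1a2 and Avpr1a were lowest in the uninjected high-fat group, where Glul was highest; "not listed" marks groups without counts for that gene.

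Glul encodes glutamine synthetase, which joins ammonia to glutamate in the last rows of cells before the central vein (ENSMUSG00000026473, GRCm38 chr1:153899944-153909723, plus strand). Its normalized counts were 14888, 13940 and 11949 in chow, 25717, 23977 and 20582 in uninjected high-fat liver and 21066, 20370 and 10114 with vehicle. All 3 uninjected high-fat libraries lay above all 3 chow libraries, while vehicle replicate 55 fell below all 3 chow libraries and the other vehicle libraries lay above them. The high-fat mean was 1.72-fold the chow mean, and the authors' deposited table gave an adjusted p of 5.06e-06. The same counts gave 0.116 with edgeR. Vehicle against uninjected differed by -0.45 (log2; 95% interval -1.09 to 0.19; edgeR adjusted p = 0.520), an interval that holds no change. Glul has no PCN counts here.

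Cyp2e1 encodes the cytochrome P450 that oxidizes ethanol and paracetamol (ENSMUSG00000025479, chr7:140763739-140774987, plus strand). It was counted at 164739, 200850 and 107749 in uninjected and 249161, 229838 and 182431 in vehicle libraries. The groups overlapped only through vehicle replicate 55 and uninjected replicate 30. The difference was 0.48 (log2; 95% interval -0.18 to 1.15; edgeR adjusted p = 0.514).

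Cyp1a2 encodes a P450 of caffeine and aromatic amine metabolism, a target of the aryl hydrocarbon receptor that is also kept high near the central vein (ENSMUSG00000032310, chr9:57676937-57683703, minus strand). Its normalized counts were 4237, 7489 and 6091 in chow and 1324, 2315 and 726.6 in uninjected high-fat liver. They were 6326, 4428 and 2680 with vehicle and 11077, 6766 and 6483 with PCN. The uninjected high-fat libraries lay below all 9 others, and the PCN libraries lay above all 3 vehicle libraries but overlapped with chow. High-fat diet against chow gave a 4.08-fold lower mean, with adjusted p-values of 0.004593 (authors' deposited table) and 0.102 (edgeR). The authors' own log2 fold change was -1.21, beside -2.03 for the ratio of means. Without replicate 38, the lowest high-fat library, the fold was 3.26. Vehicle was 3.08-fold higher than uninjected (authors' deposited table, adjusted p = 0.009658; edgeR, 0.246). PCN was 5.57-fold higher than uninjected (authors' deposited table, 2.07e-09; edgeR, 0.0559), or 4.46-fold without replicate 38. PCN against vehicle was a 1.81-fold difference that the authors' table did not list, with an unadjusted edgeR p of 0.0337. All 3 comparisons that passed the deposited threshold use the same 3 uninjected high-fat libraries.

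Oat encodes ornithine aminotransferase, which turns ornithine toward glutamate (ENSMUSG00000030934, chr7:132557478-132576398, minus strand). It was counted at 32446, 35612 and 26269 in chow, 22041, 32424 and 9554 in uninjected and 17771, 22640 and 15560 in vehicle libraries. All vehicle libraries were below all chow libraries, and the uninjected libraries spanned 3.39-fold and overlapped with both groups. The vehicle mean was 1.69-fold below chow (authors' deposited table, adjusted p = 0.004718; edgeR, 0.260).

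Axin2 encodes a scaffold of the β-catenin destruction complex and is itself a direct Wnt target, which makes it a feedback inhibitor (ENSMUSG00000000142, chr11:108920349-108950783, plus strand). Its normalized counts were 85.0, 74.8 and 92.8 in uninjected, 107.9, 86.9 and 202.4 in vehicle and 134.7, 135.7 and 136.9 in PCN libraries. The PCN libraries lay close together and above all uninjected libraries, and the vehicle libraries spanned 2.33-fold and surrounded them. PCN was 1.61-fold above uninjected (authors' deposited table, adjusted p = 0.04316; edgeR, 0.185).

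Lgr5 encodes the R-spondin receptor that strengthens Wnt signals in pericentral hepatocytes (ENSMUSG00000020140, chr10:115450311-115587780, minus strand). Libraries held 66.3, 79.8 and 63.4 normalized counts in the uninjected group, 73.2, 84.9 and 114.2 with vehicle and 131.4, 106.5 and 158.1 with PCN. PCN libraries lay above all uninjected ones, and only PCN replicate 11 fell below a vehicle library. PCN was 1.89-fold above uninjected (authors' deposited table, adjusted p = 0.01426; edgeR, 0.157), and its 1.45-fold difference from vehicle had an unadjusted edgeR p of 0.0536. Axin2 and Lgr5 have no chow counts here, and the smallest raw counts behind them were 41 and 28, in uninjected replicate 38.

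Avpr1a encodes the vasopressin V1a receptor, a calcium-signalling receptor of pericentral hepatocytes (ENSMUSG00000020123, chr10:122448499-122453452, plus strand). Its normalized counts were 128.9, 384.0 and 358.5 in chow and 46.6, 49.9 and 45.3 in uninjected high-fat liver. They were 183.1, 73.8 and 114.2 with vehicle and 161.4, 219.9 and 160.2 with PCN. The uninjected libraries were tightly grouped, with a coefficient of variation of 5.03%, and lay below all 9 others. Chow replicate 8 was 2.98-fold below chow replicate 17 and within the range of the vehicle libraries. High-fat diet against chow gave a 6.15-fold lower mean, with adjusted p-values of 1.48e-09 (authors' deposited table) and 0.0508 (edgeR). The authors' own log2 fold change was -1.93, beside -2.62 for the ratio of means. Vehicle was 2.62-fold above uninjected (authors' deposited table, 0.03106; edgeR, 0.224). PCN was 3.82-fold above uninjected and passed both tests (authors' deposited table, 2.14e-11; edgeR, 0.0179), although the edgeR call was lost without uninjected replicate 38, where the fold was 3.74. All 3 folds rest on the same uninjected libraries, where the raw counts were 92, 60 and 20.

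Hal encodes histidine ammonia-lyase, the first enzyme of histidine breakdown (ENSMUSG00000020017, chr10:93488768-93519304, plus strand). Its normalized counts were 7040, 5458 and 8659 in chow and 5307, 5721 and 2399 in uninjected high-fat liver. They were 6133, 6232 and 3876 with vehicle and 4135, 3652 and 1907 with PCN. All PCN libraries lay below all chow libraries, and uninjected and vehicle libraries overlapped with both. PCN was 2.18-fold below chow (authors' deposited table, adjusted p = 0.0003547; edgeR, 0.0979). PCN against vehicle, which shares diet and injections, was 1.68-fold lower, with an unadjusted edgeR p of 0.0413 and overlapping groups.

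Gls2 encodes the liver glutaminase that releases ammonia from glutamine in periportal cells (ENSMUSG00000044005, chr10:128194457-128210004, plus strand). Normalized counts were 5787, 5019 and 6424 in chow and 4390, 4393 and 2533 in uninjected high-fat liver. They were 4678, 4895 and 3236 with vehicle and 3047, 4669 and 1785 with PCN. Chow libraries lay above all 9 high-fat libraries, whichever the injection. Only the comparison with PCN passed a threshold, at a 1.81-fold lower mean than chow (authors' deposited table, adjusted p = 0.01838; edgeR, 0.319). Leaving out single libraries moved that fold between 1.49 and 2.38.

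Sds encodes serine dehydratase, which turns serine into pyruvate for gluconeogenesis (ENSMUSG00000029597, chr5:120476526-120483932, plus strand). It was counted at 4643, 3911 and 2535 in uninjected and 4936, 4159 and 1625 in vehicle libraries. The vehicle range enclosed the uninjected one, and the difference was -0.05 (log2; 95% interval -0.94 to 0.83; edgeR adjusted p = 0.963).

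Read by comparison, high-fat diet against chow held 3 called members in the authors' deposited table, Glul higher and Cyp1a2 and Avpr1a lower, against 4.85% of the genes tested (2.81% higher, 2.05% lower) and 8.8% of the 13775 genes expressed above the edgeR filter. Except for vehicle against uninjected, edgeR gave adjusted p-values only to genes listed in the same comparison, so no other gene could pass. For high-fat diet against chow 0 of the 3 listed members passed (edgeR calls were 0.376% of the genes tested). Of the 6 counted members 4 had an unadjusted edgeR p under 0.05, among them Gls2. Vehicle against uninjected, for which all genes have counts, held 0 members by edgeR (0.00726% of genes, 1 of 13775) and 2 with an unadjusted p under 0.05 (12.5% of genes), Cyp1a2 and Avpr1a. These 2 were also the members called in the authors' deposited table (0.792% of genes, 0.281% higher; 1.5% of the expressed genes) and those whose groups did not overlap (19.6% of genes). The median log2 difference over the 10 members was 0.32, over the 7 pericentral members 0.48 and over the 3 periportal members 0.18, beside 0.02 over all genes kept.

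Vehicle against chow held 1 called member, Oat, in the authors' deposited table. That table called 3.1% of genes (1.38% lower) and 5.67% of the expressed genes. Oat, the only member that edgeR could pass there, did not pass (edgeR calls were 0.353% of the genes tested). An unadjusted edgeR p under 0.05 was found for 2 members, Oat and Avpr1a. PCN against vehicle held 0 members in the authors' deposited table, where 1.71% of genes and 3.11% of the expressed genes were called. No member was listed there, so none could pass with edgeR (edgeR calls were 0.058% of the genes tested). Of the 6 counted members, 2 (Cyp1a2 and Hal) had an unadjusted edgeR p under 0.05. PCN against uninjected held 4, Cyp1a2, Axin2, Lgr5 and Avpr1a, all pericentral and all higher, against 3.15% of genes (1.9% called higher) in the authors' deposited table and 5.67% of the expressed genes. With edgeR, which called 0.55% of genes, 1 of these 4 passed. The PCN and uninjected groups differ by the injections as well as by PCN, and these cannot be told apart in that comparison. PCN against chow held 2, Hal and Gls2, both periportal and both lower, against 8.1% of genes (3.67% called lower) in the authors' deposited table and 14.2% of the expressed genes. With edgeR 0 of these 2 passed (edgeR calls were 3.06% of the genes tested), and both had an unadjusted p under 0.05. The members counted in chow and PCN are those called in some table, so these counts describe the members and are no estimate for zonation markers at large. For the same reason the counts at an unadjusted p under 0.05 have no share over all genes beside them, except for vehicle against uninjected.

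**Figure D2:**
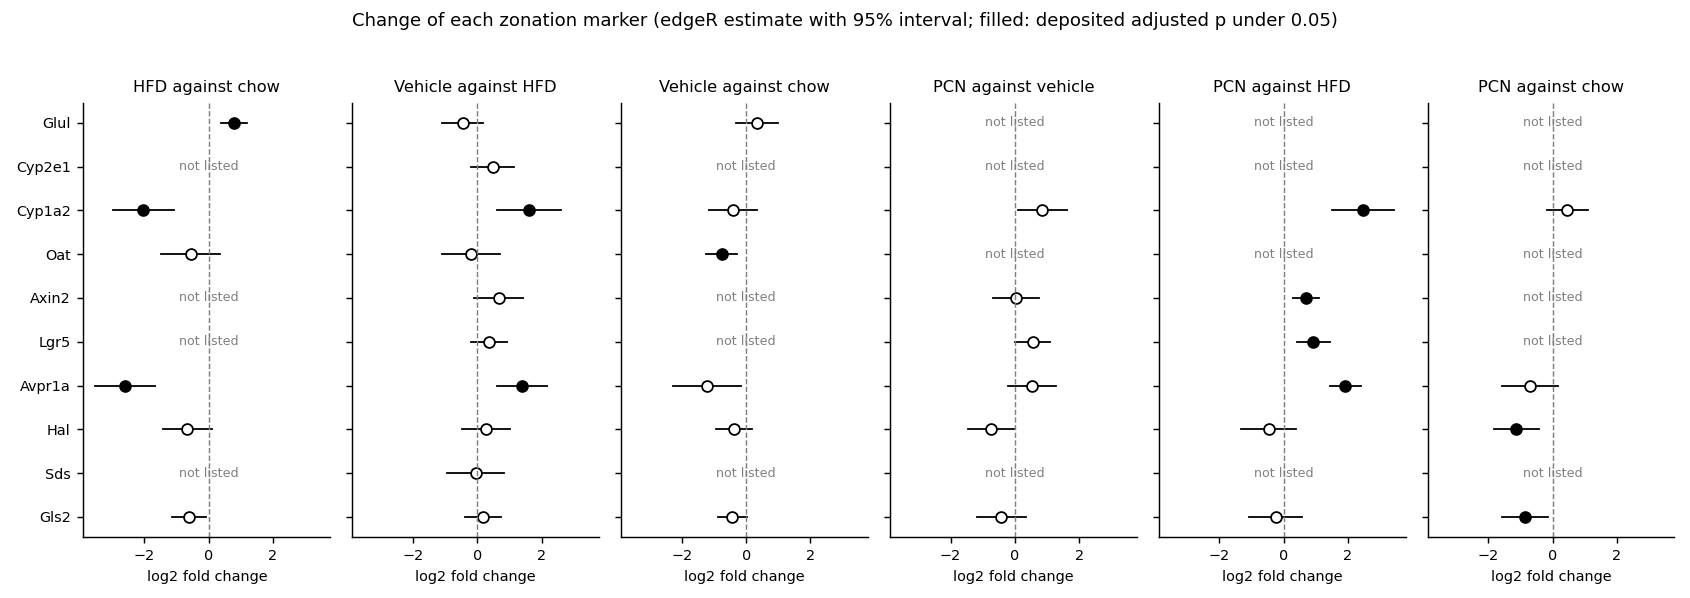
Log2 fold change of each member in the 6 comparisons, as edgeR estimates (points) with 95% intervals (lines); filled points are called in the authors' deposited table (adjusted p under 0.05). The 4 filled points for PCN against uninjected high-fat diet are all above 0 and the 2 for PCN against chow are below 0.

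Ratios of 2 members inside a library do not depend on its depth or size factor. Glul counts were 3.51, 1.86 and 1.96 times those of Cyp1a2 in chow, 19.4, 10.4 and 28.3 times in uninjected high-fat liver and 3.33, 4.6 and 3.77 times with vehicle. The uninjected libraries stood above all others, at a ratio 7.63-fold that of chow and 4.62-fold that of vehicle, as a ratio of geometric means. The ratio of Glul to Avpr1a followed the same order of groups, 9.52-fold higher in uninjected high-fat liver than in chow and 3.50-fold higher than with vehicle, with no overlap in either. An exact two-sided permutation test gave p = 0.1 for each of these, the smallest that 3 against 3 libraries allow. Against chow this outcome was fixed in advance and is no further support. Glul already lay higher there, and Cyp1a2 and Avpr1a lower, each without overlap.

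The ratio of Avpr1a to Cyp1a2 differed less between groups. Its largest difference was 1.99-fold, lower with PCN than in chow (exact permutation p = 0.2). Overlap of 3 against 3 libraries does not show that the proportion was constant. The log2 ratio of these 2 genes averaged -4.47 ± 0.502 in chow, -4.79 ± 0.767 in uninjected, -5.19 ± 0.680 in vehicle and -5.46 ± 0.588 in PCN libraries (SD, n = 3). All 6 pairs of groups overlapped. Of the periportal pair, Hal over Gls2 lay between -0.35 and 0.44 (log2) in the 12 libraries, again with every pair of groups overlapping. Cyp1a2 over Gls2, a pericentral to periportal ratio, averaged 0.02 ± 0.52 in chow, -1.49 ± 0.49 in uninjected, 0.01 ± 0.38 in vehicle and 1.42 ± 0.77 in PCN libraries. PCN was 2.66-fold above vehicle in it, and uninjected 2.83-fold below chow, without overlap (exact permutation p = 0.1 for each). Chow and vehicle differed by 1.01-fold in it and overlapped. Other pericentral genes over Gls2 were mixed. Between uninjected high-fat and chow liver Avpr1a was 3.54-fold lower and Glul 2.69-fold higher, both without overlap, and Oat differed by 1.05-fold with overlap. For Glul the separation was fixed in advance, because Glul itself lay above chow and Gls2 below it without overlap. Between vehicle and uninjected Glul was 1.64-fold lower and Cyp2e1 1.25-fold higher, both without overlap. Avpr1a, Oat, Axin2 and Lgr5 overlapped there. In all, 12 such pairs of genes gave 44 comparisons of groups, of which 15 reached the smallest exact permutation p, or 0.293 after Benjamini-Hochberg adjustment over the 44.

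**Figure D3:**
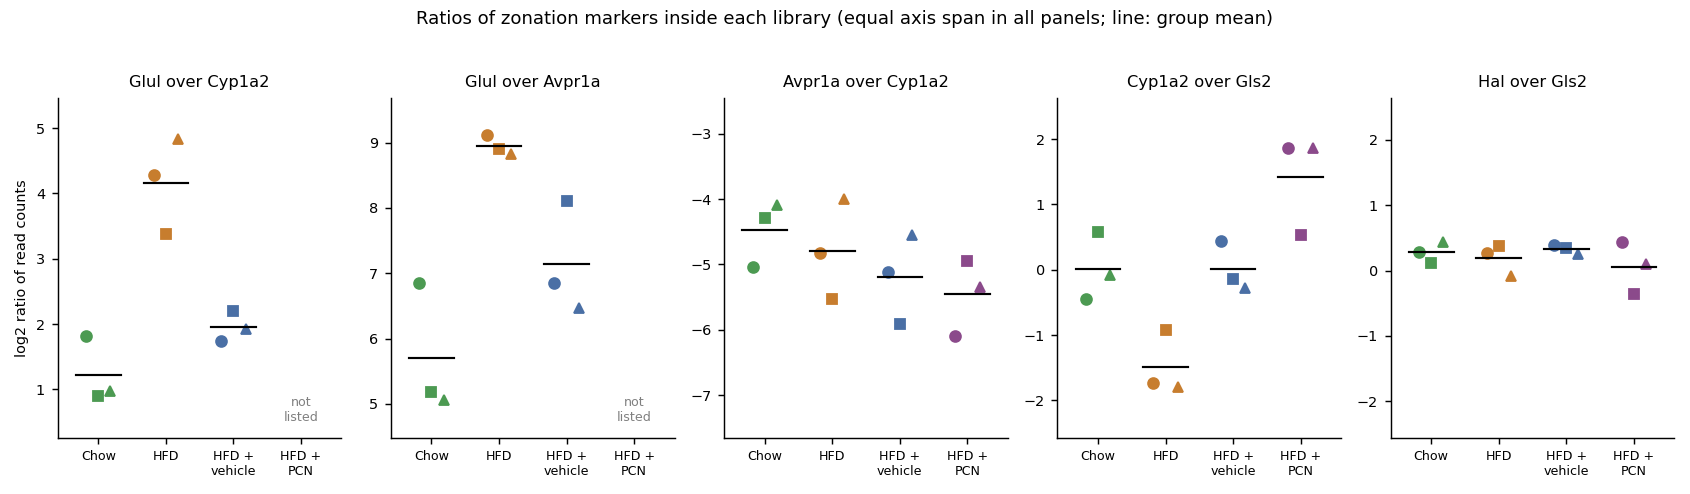
Log2 ratio of the read counts of 2 members in each library, by group, with equal axis spans and a line at the group mean. Glul over Cyp1a2 was highest in the 3 uninjected high-fat libraries (3.37 to 4.82), and Hal over Gls2 stayed between -0.35 and 0.44 in all 12.

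A wider list of 27 pericentral genes, the 7 members included, held 4 higher and 4 lower genes between high-fat diet and chow in the authors' deposited table. There 4.85% of all genes and 8.8% of the expressed genes were called. Slc13a3, a sodium-coupled dicarboxylate carrier, rose 4.80-fold (696 ± 117 against 145 ± 50.5 normalized counts; SD, n = 3), and the edgeR adjusted p was 0.0280. Nt5e (1.77-fold) and Lect2 (1.69-fold) also rose. Ang (1.99-fold) and Cyp27a1, a sterol hydroxylase of bile acid synthesis (1.48-fold), fell. Vehicle against uninjected held 3 higher (Cyp1a2, Avpr1a and Ang at 3.85-fold) and 1 lower (Nt5e at 2.39-fold) in the authors' deposited table, where 0.792% of genes were called. With edgeR none of the 27 passed, with adjusted p-values of 0.167 for Ang and 0.246 for Nt5e, and 7 had an unadjusted p under 0.05 (12.5% of genes). The list's median log2 difference was 0.26, beside 0.02 over all genes kept.

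Against uninjected high-fat liver, PCN held 8 higher genes and 1 lower gene of this list in the authors' deposited table. Of all genes 3.15% were called there, and of the expressed genes 5.67%. Besides the 4 members, Rnf43, a ubiquitin ligase that removes Wnt receptors and is a Wnt target itself, was higher at 659 ± 95 against 331 ± 49.5 (1.99-fold; edgeR adjusted p = 0.0485). Tbx3, a transcription factor of pericentral cells, was 668 ± 146 against 342 ± 68.5 (1.95-fold; edgeR, 0.0942). Ang was 2.70-fold and Cyp27a1 1.53-fold higher, and Nt5e was 1.90-fold lower. Against vehicle, which shares the injections, PCN held 1 higher (Lhpp, 1.89-fold) and 1 lower (Slc13a3, 2.54-fold), beside 1.71% of all genes. Tbx3 was 853 ± 709 in the vehicle libraries, a spread that covers both other high-fat groups. Against chow PCN held 4 of 27 higher and 0 lower, where 8.1% of all genes and 14.2% of the expressed genes were called. The 4 were Slc13a3 (2.55-fold), Lect2 (2.40-fold), Tbx3 (1.97-fold) and Rnf43 (1.88-fold). Their edgeR adjusted p-values were 0.0958, 0.0446, 0.205 and 0.0294.

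The 16 pericentral genes of drug metabolism include targets of the pregnane X receptor. Against vehicle 9 were called higher, 0 lower and 7 not called in the authors' deposited table, where 1.71% of all genes were called. Against uninjected (3.15% of all genes called) and against chow (8.1%) alike, 11 were called higher, 0 lower and 5 not called. Cyp3a11, the main P450 induced by PCN, was 681499 ± 288890 with PCN against 10628 ± 9953 with vehicle. Gstm3, a glutathione transferase, was 42738 ± 24718 against 136 ± 84.3. Their folds over vehicle were 64.1 and 315, beside 1.81 for Cyp1a2, as ratios of group means. The authors' own log2 fold changes were 1.72 for Cyp3a11 and 2.71 for Gstm3, beside 6.00 and 8.30 for the ratios of means. Between high-fat diet and chow, where 4.85% of all genes were called, the list held 2 higher (Gstm2 and Gstm3) and 3 lower (Cyp3a11, Cyp2c29 and Cyp2c50). Slc1a2, the glutamate carrier found beside Glul, and Rhbg, an ammonium channel of the same cells, were not called between vehicle and uninjected (6580 ± 2559 against 5578 ± 1955, and 24.3 ± 6.65 against 40.7 ± 8.33; edgeR adjusted p = 0.797 and 0.414).

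Of 26 periportal genes, the authors' deposited table held 2 higher (Apoa4 and Aldh1b1) and 1 lower between high-fat diet and chow (4.85% of all genes called). The lower one was Cyp2f2, a P450 often used as the periportal counterpart of Cyp2e1, at 9817 ± 822 against 14260 ± 728. With vehicle Cyp2f2 was 6172 ± 2248, 2.31-fold below chow, and with PCN 9429 ± 1508, 1.51-fold below chow, all called in the authors' deposited table (edgeR adjusted p = 0.193, 0.145 and 0.115). Vehicle against uninjected held 0 of 26 in that table (0.792% of all genes called) and 0 with edgeR (0.00726% of genes). An unadjusted edgeR p under 0.05 was found for 4, 1 of them higher, beside 12.5% of genes. PCN against chow held 12 lower and 3 higher, where 3.67% and 4.43% of all genes were called. The 3 higher genes were Aldh1b1 (2.87-fold), Hsd17b6 (2.05-fold) and Hsd17b13 (1.44-fold). Their edgeR adjusted p-values were 0.0207, 0.168 and 0.182. In the same comparison 4 of 7 measured hepatocyte markers were called lower, among them Alb, which is on both lists. Of other markers, 9 of 12 acute phase genes and 4 of 12 stellate cell markers were called higher, and their part in the periportal counts was not tested. Beside Hal and Gls2, the lower genes included the urea cycle enzymes Cps1 (1.68-fold) and Ass1 (1.94-fold) and the gluconeogenic Pck1 (3.62-fold) and Fbp1 (1.78-fold). Cps1 was 82420 ± 16279 against 138142 ± 13773, with edgeR adjusted p = 0.168. The gene of albumin, Alb, was also among the lower (710296 ± 245269 against 1527600 ± 87776). PCN against vehicle, where 1.71% of all genes were called, held 1 higher, Aldh1b1 (1.65-fold), and 0 lower.

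**Figure D4:**
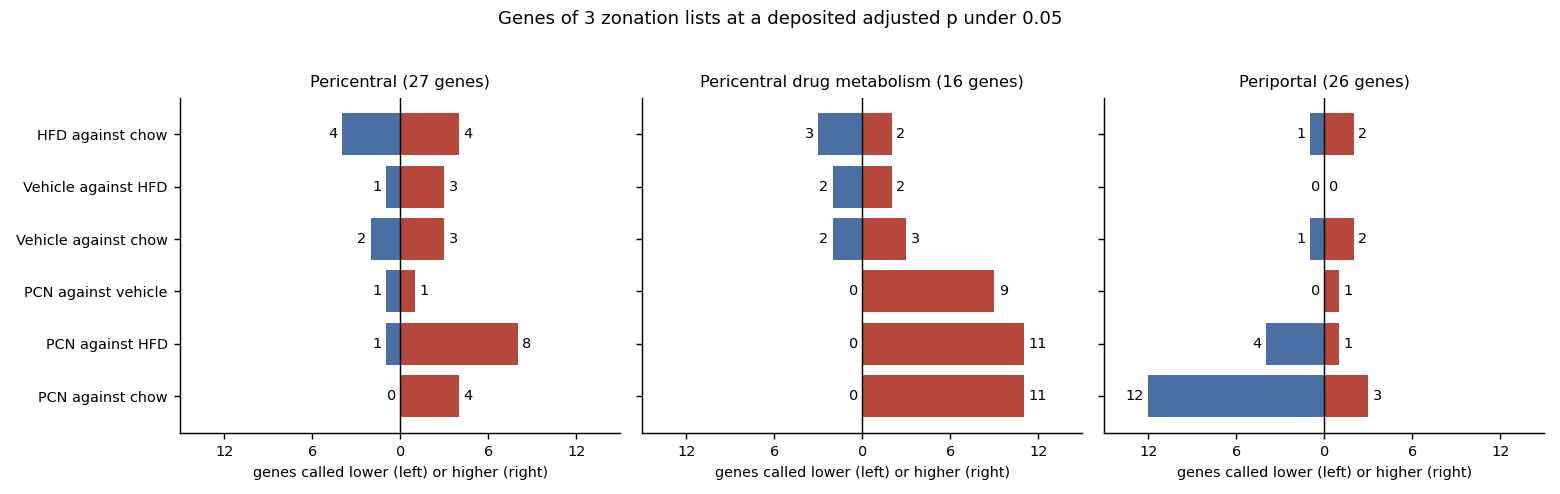
Number of genes called higher (right) or lower (left) (adjusted p under 0.05, authors' deposited table), for 27 pericentral, 16 pericentral drug metabolism and 26 periportal genes in the 6 comparisons. For PCN against chow the bars are 4 higher and 0 lower, 11 higher and 0 lower, and 3 higher and 12 lower.

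The ligands that maintain the pericentral zone were low in whole liver. Wnt2 was 110 ± 34.9 in uninjected and 66.0 ± 25.6 in vehicle libraries, Wnt9b 22.3 ± 4.65 and 8.93 ± 7.21, and Rspo3 111 ± 25.7 and 90.2 ± 24.3. None of these differences passed (edgeR adjusted p = 0.418, 0.432 and 0.616). Of 35 genes for Wnt ligands, receptors and inhibitors, 3 were lower and 0 higher between high-fat diet and chow in the authors' deposited table. That table called 4.85% of all genes (2.05% lower) and 8.8% of the expressed genes. These were the receptors Fzd5 (153 ± 36.0 against 288 ± 47.6) and Fzd7 (134 ± 13.7 against 248 ± 55.4) and the scaffold Axin1 (311 ± 26.4 against 437 ± 14.7). PCN against uninjected held 4 higher (Axin2, Lgr5, Rnf43 and Fzd7) and 0 lower in the authors' deposited table (3.15% of all genes, 5.67% of the expressed genes). PCN against vehicle held 0 in either direction (1.71% and 3.11%). PCN against chow held 1 higher, Rnf43, and 5 lower, among them Apc (1.42-fold), Axin1 (1.45-fold) and Fzd5 (1.98-fold). In that comparison 8.1% of all genes (3.67% lower) and 14.2% of the expressed genes were called.

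The list of 27 genes of ammonia, glutamine, histidine and serine metabolism holds 5 members (Glul, Gls2, Oat, Hal and Sds). High-fat diet against chow held 2 higher (Glul and the carrier Slc1a4) and 1 lower (Nags, which makes the activator of Cps1) in the authors' deposited table. PCN against chow held 3 higher and 9 lower. The shares of all genes called were 4.85% for high-fat diet against chow and 8.1% for PCN against chow, and of the expressed genes 8.8% and 14.2%. The lower genes included Amdhd1, a later enzyme of the histidine pathway that Hal opens (1.65-fold), Slc25a15, the mitochondrial ornithine carrier (1.89-fold; edgeR adjusted p = 0.0344), and Sdsl, a paralogue of Sds (1.82-fold).

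For the receptor behind Cyp1a2, Ahr was 4003 ± 414 in vehicle and 3191 ± 719 in uninjected libraries (edgeR adjusted p = 0.487). Cyp1a1, another P450 induced by that receptor, was 20.6 ± 13.1 and 19.4 ± 6.72 (edgeR adjusted p = 0.922). Of 13 genes listed around this receptor and Cyp2e1, the authors' deposited table called 4 between high-fat diet and chow. That table called 4.85% of all genes. Cyp1a2 and Hnf4a were lower, and Tiparp and Nqo1, further targets, were 1.63-fold and 2.41-fold higher in high-fat liver. Por, the electron donor of P450 enzymes, was 1.76-fold higher with vehicle than without injection in the authors' deposited table, with an edgeR adjusted p of 0.237. Of the 13 genes only Por and Cyp1a2 were called there, beside 0.792% of all genes.

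Acute phase transcripts, which hepatocytes make in inflammation, and markers of other liver cells were summed in the same libraries. Acute phase transcripts (12 measured, none at 0) were 212272 to 263350 in uninjected and 438869 to 1043640 in vehicle libraries, without overlap, and highest in vehicle replicate 55. That library was also the lowest of its group for 7 members of both zones (Glul, Cyp2e1, Cyp1a2, Oat, Hal, Sds and Gls2). It was the highest for Axin2 and Lgr5. Endothelial markers (12 measured) summed to 13410 to 14915 uninjected and 8573 to 13163 with vehicle, and stellate cell markers (12 measured) to 11165 to 14541 and 6491 to 11110, both without overlap and with none at 0. Kupffer cell markers (12 measured) summed to 8485 to 13918 and 6143 to 8961, and cholangiocyte markers (8 measured) to 842 to 1519 and 798 to 1240, with overlap and none at 0. Single markers called between vehicle and uninjected in the authors' deposited table were 8 of 12 acute phase genes, all higher, and 2 of 12 endothelial markers, both lower. None of the Kupffer cell, stellate cell, cholangiocyte or measured hepatocyte markers was called there. Of all genes 0.792% were called between vehicle and uninjected, and 4.85% between high-fat diet and chow. Between high-fat diet and chow the authors' deposited table called 7 acute phase genes, 6 Kupffer cell, 4 stellate cell and 2 cholangiocyte markers and 1 endothelial marker higher. It called 1 acute phase gene, 2 endothelial and 2 hepatocyte markers lower. The part of these shifts in the differences of the members was not tested.

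Over the 6 libraries with counts for all genes, the gene most like Cyp2e1 was Igf1, itself on the periportal list, at a Pearson r of 0.999 on the log2 scale. The nearest to Cyp1a2 were Mysm1 (0.996) and Igfbp2 (0.995), and to Glul Atp5j2 and Map3k6 (both 0.998). The nearest to Avpr1a was Polr3a (0.998) and to Axin2 Gigyf2 (0.999). Between 151 (Avpr1a) and 576 (Hal) of 10587 genes reached 0.9 with a member, and the 6 libraries share 2 groups and their spread in depth.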

How the data were processed

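RNA of 12 mouse liver samples was sequenced, 3 in each of 4 groups. The submitters' processing notes name HISAT2, HTSeq and DESeq2 and the build GRCm38 (mm10), with versions not given in the sources used here. Each of the authors' 6 deposited tables compares 2 groups and holds the raw read counts of 6 libraries, with a mean normalized count, a log2 fold change, a standard error, a p-value and an adjusted p-value from DESeq2. Of these, 1 table gives values for 26015 genes and the other 5 for called genes alone, so a member without a value in them was not analysed there. Numbers with a decimal comma were read as decimals.

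Size factors were recovered from the counts and the deposited mean normalized counts and put on 1 scale (they differed by at most 0.513% from table to table). Group values are means of normalized counts ± SD, and folds are ratios of group means. They are not the authors' deposited log2 fold changes, which were smaller in size for every member called. Exon lengths are of GENCODE M21 and promoters of the RefSeq table. Vehicle against uninjected was tested with the quasi-likelihood test of edgeR 4.0.16 (TMM, expression filter, 13775 genes kept, Benjamini-Hochberg adjustment, threshold 0.05). For the other 5 comparisons the calls are those of the authors' deposited tables, and edgeR was run as a second test on the counts they list. It used the recovered size factors and the dispersion trend and prior fitted to all genes of the complete table. The p-values were adjusted over an estimate of how many genes were tested (25101 to 25880), and only for genes listed in that comparison. The fits were tested on simulated data. Exact permutation tests were two-sided, on log2(normalized count + 1) or the log2 ratio of counts.

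Alternatives were DESeq2 1.42.0, RLE size factors, no expression filter, each library left out and library totals in place of size factors; edgeR fits without high-fat-diet replicate 38 or vehicle replicate 55 were added after the data were seen. The members and gene lists were chosen with earlier results of these data known. All members are named. From the lists, the text names up to 4 called genes per comparison with the largest change and a mean count of at least 50, 11 genes whether called or not, and further called genes chosen after their values were seen. A gene of the lists is not reported here by name.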

Additional observations from a re-analysis of the deposited data

How the results depend on the processing

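For vehicle against uninjected high-fat diet, edgeR called 1 gene, and 1 with RLE size factors. The number was 283 without the expression filter, 268 with DESeq2 and 206 in the authors' deposited table, and 0 to 9 with single libraries left out, 9 without vehicle replicate 23. The number of members called there, 0 with edgeR, was 2 (Cyp1a2 and Avpr1a) without the filter, with DESeq2 and in the authors' deposited table. The cause was not tested. Of members that passed in the authors' deposited tables, edgeR called 0 of 3 for high-fat diet against chow, 0 of 1 for vehicle against chow, 1 of 4 for PCN against uninjected and 0 of 2 for PCN against chow. Without high-fat-diet replicate 38 the first and the third were 0 and 0, and without vehicle replicate 55 the second was 0. Of the members' log2 differences between vehicle and uninjected, none of which passed with edgeR, 4 changed sign when 1 library was left out. With libraries left out in turn, Oat lay between -0.54 and 0.23 (above 0 without high-fat-diet replicate 30), Hal between -0.020 and 0.48 and Gls2 between -0.033 and 0.33 (both below 0 without replicate 38). Sds lay between -0.36 and 0.29, and was above 0 without high-fat-diet replicate 4 (0.13) or vehicle replicate 55. The other 165 values of single members kept their direction. Among members called in the authors' deposited tables, Cyp1a2 moved between 3.26-fold and 5.79-fold for high-fat diet against chow and between 4.46-fold and 7.91-fold for PCN against uninjected, and Avpr1a between 5.16-fold and 7.86-fold for high-fat diet against chow. No paired analysis was possible because the replicate numbers of the groups differ. Depth limits Avpr1a, Axin2 and Lgr5 most, with 20, 41 and 28 reads in high-fat-diet replicate 38. In all, 4 members have no PCN counts here and 4 no chow counts, so their levels there were not analysed here.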
